A study of Mus musculus with 32 samples.

Results

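The 37 genes described here encode the folding and disposal machinery of the endoplasmic reticulum (ER), and they were followed in cultured mouse islets that carried either human or mouse islet amyloid polypeptide (IAPP) and were kept at a high or a moderate glucose level. They were taken as the rows of the deposited gene table whose symbol was on a list of ER chaperones, disulfide isomerases and oxidases, sensors and transcription factors of the unfolded protein response, and genes of ER-associated degradation (ERAD). Each of the 37 symbols matched 1 of 36595 rows, and all 37 passed the filter on low counts that left 16428 genes for testing. By role, 11 encode lumenal chaperones, co-chaperones or prolyl isomerases, 3 act in the lectin chaperone cycle, 9 form or rearrange disulfide bonds, 4 are sensors, regulators or transcription factors of the response, and 10 act in ERAD.

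Proteins that enter the ER are held by chaperones such as BiP and oxidised by disulfide isomerases until they are folded, and those that fail are passed back to the cytosol for degradation by the proteasome. When unfolded protein builds up, the membrane sensors IRE1 alpha, ATF6 and PERK signal to the nucleus: IRE1 alpha splices the mRNA of Xbp1, ATF6 is cut to a transcription factor, and both factors raise chaperone and ERAD genes. The beta cell makes proinsulin in large amounts and depends on this machinery, and ER stress is a well-known part of beta cell failure in diabetes.

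Libraries of poly(A)-selected RNA came from 4 groups of 8, since islets of each genotype, hIAPP and mIAPP, were kept at 16.7 mM or at 11.1 mM glucose. In the hIAPP mice the human gene had been put in place of the mouse Iapp locus by homologous recombination, and the mIAPP mice were their wild-type littermates, all on a C57BL/6NHsd background, of both sexes and 10 weeks old. Islets of all groups recovered overnight at 11.1 mM glucose and were then cultured for 48 h. The labels describe 8 separate experiment sets, each with 1 library of every group. The number of animals behind each set, and whether the hIAPP mice carried 1 or both altered alleles, is not given in the sources used here. Where animals of different sets are not stated to differ, p-values measure the spread between these libraries, part of which may be technical.

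Libraries held between 16.1 and 43.7 M estimated reads, and insulin transcripts made up 14.9% to 29.9% of them. The row of the replaced gene, Iapp, was lower in hIAPP than in mIAPP islets in 8 of 8 sets at both glucose levels, with a median of 11091 against 24438 TMM-scaled CPM (reads scaled to a common library size) at 16.7 mM and 6678 against 11685 CPM at 11.1 mM. It was not at 0 in hIAPP islets, and whether reads of the human sequence were counted there is not given in the sources used here. The share of mitochondrially encoded transcripts differed between groups and between sets. At 16.7 mM its median was 3.498% for hIAPP and 7.29% for mIAPP. At 11.1 mM it was 18.1% for hIAPP and 20.4% for mIAPP. The mIAPP library of set 7 at 16.7 mM stood apart at 37.01%. In bulk islets, fewer cells of a type and less RNA per cell cannot be told apart.

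The best-known DNA element of this gene group is the ER stress response element (ERSE), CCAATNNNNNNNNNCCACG, which binds ATF6 and XBP1 together with the factor NF-Y. It was searched for on both strands in windows from 250 bases before to 50 bases after each RefSeq start on build GRCm38.p6, together with ERSE-II (ATTGGNCCACG) and the core of the unfolded protein response element (TGACGTGG). RefSeq windows were found for 33 of the 37 genes, and not for Hyou1, Manf, Atf6 and Derl1. An exact ERSE lay in the windows of 10 of these 33 genes (30.3%), against 37 of 27025 genes in the whole RefSeq table (0.137%). ERSE-II was present in Dnajb11 and Herpud1 (6.06% of the 33, against 0.0444% of all genes), and the third core in Txndc11 and Txndc5 (6.06%, against 0.714%). Counting any of the 3, 14 of the 33 genes had a match (42.4%, against 0.884% of all genes). Matches are letter patterns and not measured binding, and several of these elements were first described on genes of this list.

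The ERSE matches are shown because the genes that carry them span 4 of the 5 roles. Capitals mark the conserved ends, lower case the 9-base spacer, each is written 5′ to 3′ in the direction of the element, and the distance is that of its first base in the gene's window from the RefSeq start.
Calr, 162 bases before the start: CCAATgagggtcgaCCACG
Canx, 145 bases before the start: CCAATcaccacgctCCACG
Creld2, 126 bases before the start: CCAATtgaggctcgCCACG
Derl3, 156 bases before the start: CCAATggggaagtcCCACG
Dnajc3, 105 bases before the start: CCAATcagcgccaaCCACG
Ero1lb, 201 bases before the start: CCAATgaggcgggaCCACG
Hsp90b1, 212 bases before the start: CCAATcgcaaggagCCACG
Hsp90b1, 107 bases before the start: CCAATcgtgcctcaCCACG
Hspa5, 65 bases before the start: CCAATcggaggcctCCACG
Pdia6, 98 bases before the start: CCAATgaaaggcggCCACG
Syvn1, 44 bases before the start: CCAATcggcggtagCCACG

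The whole windows of 4 genes show how these elements sit in the promoter, with the gene's own strand written 5′ to 3′ and each match in capitals. Hspa5 and Derl3 each have 1 ERSE, Hsp90b1 has 2 in opposite directions, and Herpud1 has ERSE-II.
Hspa5 (chr2:34771840-34772139, + strand): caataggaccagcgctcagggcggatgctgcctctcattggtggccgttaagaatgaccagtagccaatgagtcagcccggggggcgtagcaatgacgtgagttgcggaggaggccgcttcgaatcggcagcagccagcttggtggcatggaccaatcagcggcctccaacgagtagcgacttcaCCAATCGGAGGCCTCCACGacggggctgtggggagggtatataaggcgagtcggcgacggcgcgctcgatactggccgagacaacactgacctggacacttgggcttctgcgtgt
Hsp90b1 (chr10:86705395-86705694, - strand): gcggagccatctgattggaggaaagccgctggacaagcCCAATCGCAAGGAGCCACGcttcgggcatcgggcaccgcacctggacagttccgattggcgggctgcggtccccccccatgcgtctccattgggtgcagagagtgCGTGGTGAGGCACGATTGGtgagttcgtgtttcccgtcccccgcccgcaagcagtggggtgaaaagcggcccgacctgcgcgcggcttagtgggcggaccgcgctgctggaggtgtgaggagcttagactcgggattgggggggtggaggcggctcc
Derl3 (chr10:75893148-75893447, + strand): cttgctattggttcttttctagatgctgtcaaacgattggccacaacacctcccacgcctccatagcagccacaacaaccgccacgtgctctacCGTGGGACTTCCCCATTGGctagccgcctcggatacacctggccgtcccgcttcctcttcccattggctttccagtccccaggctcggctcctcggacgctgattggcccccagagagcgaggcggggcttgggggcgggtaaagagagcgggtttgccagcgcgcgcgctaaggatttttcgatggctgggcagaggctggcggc
Herpud1 (chr8:94386179-94386478, + strand): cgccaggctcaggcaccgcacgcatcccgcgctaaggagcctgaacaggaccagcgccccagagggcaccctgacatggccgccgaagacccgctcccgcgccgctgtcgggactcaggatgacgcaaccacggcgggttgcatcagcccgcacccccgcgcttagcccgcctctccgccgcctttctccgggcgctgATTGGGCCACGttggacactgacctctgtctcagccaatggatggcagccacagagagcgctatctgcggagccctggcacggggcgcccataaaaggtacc

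The change with glucose was the dominant one in these genes. In hIAPP islets 35 of the 37 genes (94.6%) were higher at 16.7 than at 11.1 mM glucose and none was lower, where 32.2% of all tested genes were higher and 33.3% lower (edgeR quasi-likelihood test with the set as a block, Benjamini-Hochberg adjusted p under 0.05). In mIAPP islets 36 of 37 (97.3%) were higher and none lower, where 24.9% of all tested genes were higher and 22.7% lower. The median log2 fold change of the 37 genes was 1.31 in hIAPP and 1.04 in mIAPP islets, and 35 genes rose in both genotypes. Of the 3220 tested genes with a mean of at least 50 CPM, which include 36 of the 37, 48.1% were higher in hIAPP and 40.8% in mIAPP islets. The lowest value at 16.7 mM exceeded the highest at 11.1 mM for 32 of the 37 genes in hIAPP islets (86.5%, against 14.3% of all tested genes), and for 16 of 37 in mIAPP islets (43.2%, against 2.64%).

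**Figure D1:**
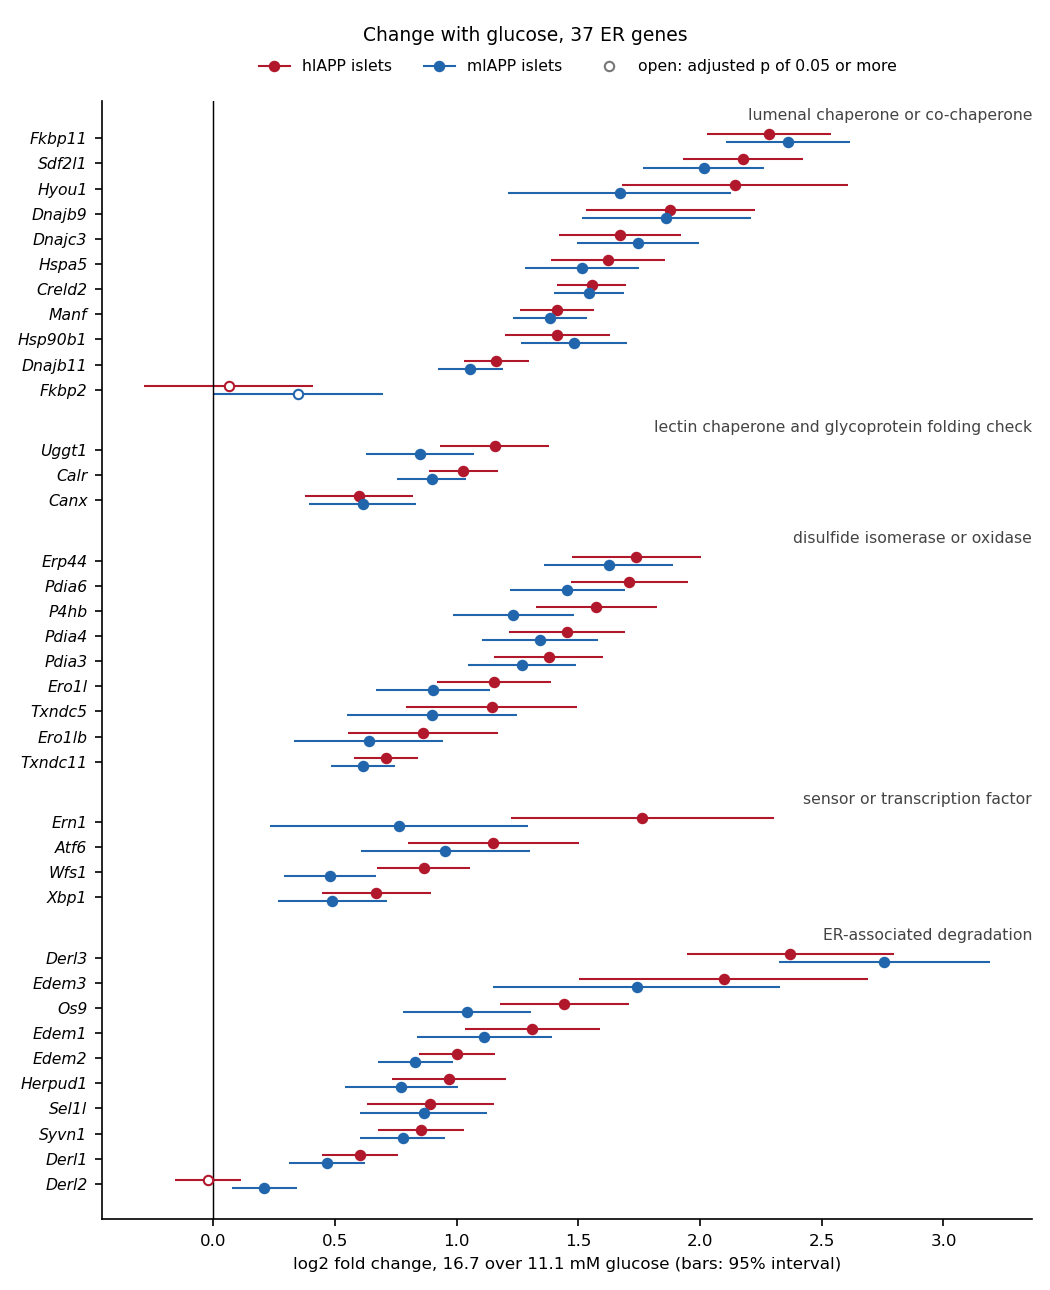
Log2 fold change of the 37 genes between 16.7 and 11.1 mM glucose in hIAPP (red) and mIAPP islets (blue), grouped by role, with 95% intervals from the edgeR fit of 8 libraries a group; open circles have an adjusted p of 0.05 or more. Nearly all intervals lie above 0 in both genotypes, and Fkbp2 in both and Derl2 in hIAPP islets are the open ones.

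Set by set, the mean log2 difference of the 37 genes between 16.7 and 11.1 mM was positive in 8 of 8 sets of each genotype, from 0.93 to 1.61 in hIAPP and from 0.73 to 1.56 in mIAPP islets. Together the 37 genes took a median of 2.53% of all counts in hIAPP islets at 16.7 mM, against 0.828% at 11.1 mM. In mIAPP islets they took 1.99% at 16.7 mM, against 0.839% at 11.1 mM. These totals include mitochondrially encoded reads. Of the other reads, the 37 genes took medians of 2.61% against 1.04% in hIAPP and 2.19% against 0.996% in mIAPP islets.

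Among the lumenal chaperones, 10 of 11 rose in hIAPP islets and 10 of 11 in mIAPP islets, with median log2 fold changes of 1.62 and 1.54. Hspa5, which encodes BiP, the HSP70 chaperone that also holds the sensors inactive, measured 2300, 2595 and 2784 CPM (lowest, median and highest library) in hIAPP islets at 16.7 mM, against 618, 801 and 1217 CPM at 11.1 mM. In mIAPP islets it measured 1505, 2222 and 2867 CPM at 16.7 mM, against 552, 732 and 1266 CPM at 11.1 mM. The groups did not overlap in either genotype, set 4 was the highest library at 11.1 mM in both, and set 7 the lowest mIAPP library at both glucose levels. The log2 fold change was 1.62 ± 0.11 in hIAPP islets (SE, adjusted p = 1.25e-11) and 1.52 ± 0.11 with mIAPP (adjusted p = 1.06e-10).

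Fkbp11, an ER prolyl isomerase, had the largest change of this role. It measured 123, 139 and 155 CPM in hIAPP islets at 16.7 mM, against 24.0, 27.8 and 33.9 CPM at 11.1 mM. In mIAPP islets the values were 113, 155 and 266 CPM at 16.7 mM, against 19.4, 30.5 and 45.0 CPM at 11.1 mM. The groups were far apart in both genotypes, with log2 fold changes of 2.28 ± 0.12 in hIAPP (adjusted p = 1.04e-13) and 2.36 ± 0.12 with mIAPP (adjusted p = 1.61e-13). Sdf2l1, a partner of the ER DnaJ co-chaperones, measured 253, 318 and 355 CPM in hIAPP islets at 16.7 mM, against 60.0, 68.5 and 79.7 CPM at 11.1 mM. In mIAPP islets it measured 227, 276 and 347 CPM at 16.7 mM, against 47.4, 61.6 and 117 CPM at 11.1 mM. No library at 16.7 mM came down to the level of any at 11.1 mM, and the log2 fold changes were 2.18 ± 0.12 in hIAPP (adjusted p = 1.59e-13) and 2.01 ± 0.12 with mIAPP (adjusted p = 1.70e-12).

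Hyou1 encodes GRP170, a nucleotide exchange factor of BiP. Its lowest, median and highest values were 1227, 1426 and 1553 CPM in hIAPP islets at 16.7 mM, against 143, 313 and 597 CPM at 11.1 mM. Islets with mIAPP had 402, 1106 and 1580 CPM at 16.7 mM, against 90.1, 330 and 691 CPM at 11.1 mM. Only the hIAPP groups were fully apart: the mIAPP library of set 7 at 16.7 mM fell inside the range at 11.1 mM, and 7 of 8 did not. The log2 fold changes were 2.14 ± 0.23 in hIAPP (adjusted p = 1.56e-08) and 1.67 ± 0.22 with mIAPP (adjusted p = 1.52e-06). The other lumenal genes that rose did so by log2 1.16 to 1.88 in hIAPP and 1.06 to 1.86 in mIAPP islets. They were Dnajb9, Dnajb11 and Dnajc3, which encode J-domain partners of BiP, Hsp90b1 (the ER HSP90, GRP94), and Creld2 and Manf, secreted or lumenal proteins known as targets of the response.

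Fkbp2, a small prolyl isomerase of the ER and the only lumenal gene not past the threshold, is named here after its values were seen. It measured 187, 212 and 284 CPM in hIAPP islets at 16.7 mM, against 116, 246 and 372 CPM at 11.1 mM. The mIAPP values were 208, 253 and 883 CPM at 16.7 mM, against 118, 211 and 550 CPM at 11.1 mM. Groups overlapped throughout and set 7 was the highest library in each of the 4 groups. Its log2 fold change was 0.06 ± 0.17 (adjusted p = 0.748) for hIAPP and 0.35 ± 0.17 (adjusted p = 0.0893) for mIAPP. With the mitochondrial share as a covariate the value in hIAPP islets was 0.82 ± 0.20 (adjusted p = 0.00399). Fkbp2 also passed the threshold in mIAPP islets in that fit, and in both genotypes in libraries with under 10% mitochondrial counts.

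All 3 genes of the lectin chaperone cycle rose in both genotypes. Calr, the calcium-binding lectin calreticulin, measured 1437, 1542 and 1664 CPM in hIAPP islets at 16.7 mM, against 660, 763 and 847 CPM at 11.1 mM. In mIAPP islets the values were 1292, 1417 and 1593 CPM at 16.7 mM, against 635, 782 and 885 CPM at 11.1 mM. Both pairs of groups were apart, with log2 fold changes of 1.03 ± 0.07 in hIAPP (adjusted p = 5.04e-12) and 0.90 ± 0.07 with mIAPP (adjusted p = 1.49e-10). Canx, its membrane-bound relative calnexin, changed by 0.60 ± 0.11 in hIAPP (adjusted p = 3.23e-05) and 0.61 ± 0.11 with mIAPP (adjusted p = 5.22e-05), with 544, 615 and 641 CPM at 16.7 mM, against 296, 394 and 569 CPM at 11.1 mM in hIAPP islets. In mIAPP islets Canx measured 414, 590 and 729 CPM at 16.7 mM, against 264, 382 and 570 CPM at 11.1 mM, so that its groups overlapped in both genotypes. Uggt1, the folding sensor that returns misfolded glycoproteins to the cycle, changed by 1.16 ± 0.11 and 0.85 ± 0.11.

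The 9 disulfide isomerases and oxidases all rose in both genotypes, with median log2 fold changes of 1.38 in hIAPP and 1.23 in mIAPP islets. Erp44, which retains unassembled proteins and the ERO1 oxidases, had the largest change. It measured 157, 184 and 203 CPM in hIAPP islets at 16.7 mM, against 39.0, 54.96 and 80.7 CPM at 11.1 mM. Islets with mIAPP had 83.2, 144 and 192 CPM at 16.7 mM, against 28.0, 47.2 and 82.1 CPM at 11.1 mM. The groups did not overlap, although the mIAPP library of set 7 at 16.7 mM lay close to the highest library at 11.1 mM. The log2 fold changes were 1.74 ± 0.13 in hIAPP (adjusted p = 3.22e-11) and 1.62 ± 0.13 with mIAPP (adjusted p = 2.93e-10).

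Pdia4 measured 254, 298 and 334 CPM in hIAPP islets at 16.7 mM, against 78.4, 105 and 163 CPM at 11.1 mM. The mIAPP values were 169, 266 and 341 CPM at 16.7 mM, against 61.1, 98.1 and 166 CPM at 11.1 mM. This multidomain isomerase changed by 1.45 ± 0.12 in hIAPP (adjusted p = 1.13e-10) and, with mIAPP, 1.34 ± 0.12 (adjusted p = 1.18e-09), and groups were apart in both. Pdia3, the isomerase that works with calnexin and calreticulin, had 1364, 1514 and 1580 CPM in hIAPP islets at 16.7 mM, against 400, 581 and 795 CPM at 11.1 mM. In mIAPP islets it had 837, 1272 and 1592 CPM at 16.7 mM, against 370, 535 and 815 CPM at 11.1 mM. Both pairs of groups were apart, and the log2 fold changes were 1.38 ± 0.11 (adjusted p = 8.93e-11) and 1.27 ± 0.11 (adjusted p = 1.01e-09). Of the remaining members of this role, Txndc5 changed by 1.14 and 0.90 and Txndc11 by 0.71 and 0.62 in hIAPP and mIAPP islets. The genes P4hb, Pdia6, Ero1l and Ero1lb are described with the genotypes.

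The sensors and regulators changed less than the chaperones, with median log2 fold changes of 1.01 in hIAPP and 0.63 in mIAPP islets, and all 4 passed the threshold in both. Xbp1, whose mRNA is the splicing substrate of IRE1 alpha, measured 284, 307 and 323 CPM in hIAPP islets at 16.7 mM, against 133, 196 and 268 CPM at 11.1 mM. In mIAPP islets the values were 153, 302 and 329 CPM at 16.7 mM, against 113, 193 and 301 CPM at 11.1 mM. Groups were apart in hIAPP islets and overlapped in mIAPP islets, where the library of set 7 lay far below the other 7 at 16.7 mM. The log2 fold changes were 0.67 ± 0.11 in hIAPP (adjusted p = 9.99e-06) and 0.49 ± 0.11 with mIAPP (adjusted p = 0.000720). Gene-level counts hold spliced and unspliced Xbp1 together, so that splicing was not measured here. Atf6 measured 132, 146 and 164 CPM in hIAPP islets at 16.7 mM, against 33.2, 67.4 and 121 CPM at 11.1 mM. Islets with mIAPP had 47.0, 132 and 181 CPM at 16.7 mM, against 23.6, 68.6 and 115 CPM at 11.1 mM. This membrane sensor changed by 1.15 ± 0.17 in hIAPP (adjusted p = 2.74e-06) and 0.95 ± 0.17 with mIAPP (adjusted p = 6.28e-05), with the mIAPP groups overlapping.

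Ern1, which encodes IRE1 alpha itself, showed the widest gap between the genotypes. It measured 204, 297 and 322 CPM in hIAPP islets at 16.7 mM, against 34.2, 75.9 and 184 CPM at 11.1 mM. The mIAPP values were 49.2, 152 and 228 CPM at 16.7 mM, against 19.5, 101 and 196 CPM at 11.1 mM. The hIAPP groups were apart, and in mIAPP islets only 2 of 8 libraries at 16.7 mM exceeded the highest at 11.1 mM. Its log2 fold change was 1.76 ± 0.26 in hIAPP (adjusted p = 3.72e-06) and, with mIAPP, 0.77 ± 0.26 (adjusted p = 0.0172). The call in mIAPP islets ended without set 2, without set 8 and without the set in the fit. It also ended with the mitochondrial share as a covariate and in libraries with under 10% mitochondrial counts. In hIAPP islets the call ended with that covariate. Wfs1, the ER membrane protein wolframin whose loss causes Wolfram syndrome, measured 171, 199 and 214 CPM in hIAPP islets at 16.7 mM, against 88.5, 106 and 138 CPM at 11.1 mM. In mIAPP islets the values were 130, 166 and 203 CPM at 16.7 mM, against 87.8, 112 and 166 CPM at 11.1 mM. Only its hIAPP groups were apart, with log2 fold changes of 0.86 ± 0.09 (adjusted p = 1.73e-08) in hIAPP and 0.48 ± 0.09 (adjusted p = 0.000142) in mIAPP islets.

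Of the 10 ERAD genes, 9 rose in hIAPP and 10 in mIAPP islets, with median log2 fold changes of 0.99 and 0.85. Derl3, a derlin of secretory tissues that helps misfolded proteins leave the ER, changed most. It measured 20.5, 25.2 and 34.9 CPM in hIAPP islets at 16.7 mM, against 2.30, 4.79 and 7.11 CPM at 11.1 mM. Islets with mIAPP had 19.5, 34.5 and 45.1 CPM at 16.7 mM, against 2.76, 4.77 and 12.2 CPM at 11.1 mM. Groups were apart in both genotypes, and the log2 fold changes were 2.37 ± 0.21 in hIAPP (adjusted p = 5.75e-10) and 2.76 ± 0.21 with mIAPP (adjusted p = 1.63e-10). The acinar cell, which is rich in Derl3, was followed by 16 markers. Of these, 13 were tested (Prss1, Pnlip and Ptf1a did not pass the filter), and 2 were higher and 2 lower in hIAPP and 1 higher and 1 lower in mIAPP islets. Their summed level had medians of 144 CPM in hIAPP islets at 16.7 mM, against 97.4 CPM at 11.1 mM, and of 158 CPM in mIAPP islets at 16.7 mM, against 99.6 CPM at 11.1 mM. Their ranges overlapped, at 105 to 198 against 54.4 to 281 CPM in hIAPP islets and 101 to 325 against 72.4 to 233 CPM in mIAPP islets, and 1 marker, Bhlha15, named after its values were seen, made up most of the sum at 16.7 mM. Bhlha15 had medians of 91.8 CPM in hIAPP islets at 16.7 mM, against 34.4 CPM at 11.1 mM, and of 93.2 CPM in mIAPP islets at 16.7 mM, against 32.2 CPM at 11.1 mM. The enzyme gene Prss2 had medians of 9.09 against 10.3 CPM in hIAPP and 9.68 against 11.4 CPM in mIAPP islets, and Cela1 was lower at 16.7 mM in both genotypes (log2 -0.56 and -0.57). The part of acinar RNA in the Derl3 result was not tested.

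Edem3, a mannosidase-like protein that marks glycoproteins for ERAD, measured 107, 126 and 152 CPM in hIAPP islets at 16.7 mM, against 11.4, 30.0 and 71.3 CPM at 11.1 mM. The mIAPP values were 25.5, 87.8 and 150 CPM at 16.7 mM, against 7.45, 30.4 and 73.7 CPM at 11.1 mM. Its mIAPP groups overlapped and its hIAPP groups did not, with log2 fold changes of 2.10 ± 0.29 in hIAPP (adjusted p = 1.43e-06) and 1.74 ± 0.28 with mIAPP (adjusted p = 3.28e-05). Its relative Edem2 had 219, 246 and 259 CPM in hIAPP islets at 16.7 mM, against 111, 124 and 131 CPM at 11.1 mM. In mIAPP islets the values were 197, 238 and 284 CPM at 16.7 mM, against 107, 131 and 165 CPM at 11.1 mM. For Edem2 both pairs of groups were apart, at log2 1.00 ± 0.08 (adjusted p = 4.25e-11) and 0.83 ± 0.08 (adjusted p = 3.06e-09). The other ERAD genes are the HRD1 ubiquitin ligase Syvn1, its partner Sel1l, the scaffold Herpud1 and the derlin Derl1, which rose by log2 0.60 to 0.97 in hIAPP and 0.47 to 0.86 in mIAPP islets.

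**Figure D2:**
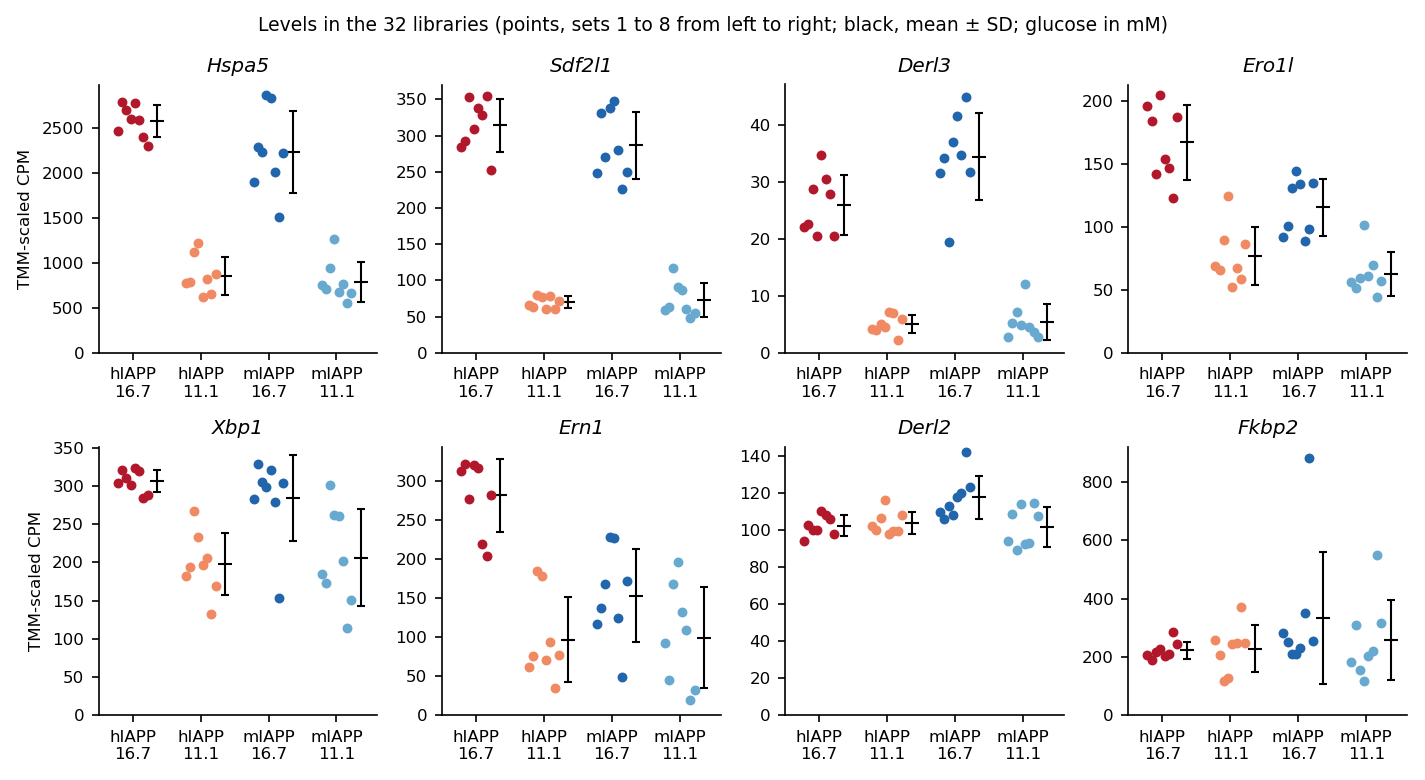
TMM-scaled CPM of 8 of the genes in every library of the 4 groups, with sets 1 to 8 from left to right within a group and the mean ± SD (n = 8) in black; each axis starts at 0. Hspa5, Sdf2l1 and Derl3 separate the glucose levels in both genotypes, Ern1 and Ero1l also set hIAPP above mIAPP islets at 16.7 mM in most libraries, and the groups of Derl2 and of Fkbp2 overlap between the glucose levels in both genotypes, with set 7 the highest Fkbp2 library of each group.

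Compared per kilobase of the longest coding transcript, the levels of the 37 genes spanned 39.7-fold in hIAPP islets at 16.7 mM, against 96.4-fold at 11.1 mM, and 52.1-fold in mIAPP islets at 16.7 mM, against 99.2-fold at 11.1 mM. In hIAPP islets at 16.7 mM the highest medians were those of Hsp90b1 (759 CPM per kb), Hspa5 (707) and Calr (706), and the lowest those of Derl3 (19.1), Edem3 (19.9) and Atf6 (20.1). The oxidase Ero1lb, the ERO1 form known to be abundant in islets, stood at 546 CPM per kb, against 38.2 for Ero1l.

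Genes with an exact ERSE in their window had a median log2 fold change of 1.48 in hIAPP islets (10 genes, range 0.60 to 2.37), against 1.16 in the 23 genes whose window lacked it (range -0.02 to 2.28). In mIAPP islets the medians were 1.47 (range 0.61 to 2.76) and 0.90 (range 0.21 to 2.36). The ranges overlapped almost entirely: Fkbp11 and Sdf2l1, which are among the genes with the largest changes, had no match to any of the 3 patterns in their windows.

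The mean level of the 37 genes moved with the mitochondrial share of a library as well as with glucose, but single genes differed. Over the 32 libraries, with group means removed, Fkbp2 (r = 0.86), Derl2 (0.38), Edem2 (0.20), Fkbp11 (0.19) and Creld2 (0.06) correlated positively with the log2 share. The other genes correlated negatively, from -0.01 for Dnajb11 to -0.91 for Pdia6. In each of the 4 groups the library with the highest mitochondrial share had the lowest mean level of the 37 genes, and it was set 8 in hIAPP islets at 16.7 mM and set 7 in the other groups. The part of that share in the glucose result was not tested beyond the fits given here. The glucose groups did not overlap: the mean log2 level was 8.33 to 8.53 in hIAPP and 7.87 to 8.55 in mIAPP islets at 16.7 mM, against 6.80 to 7.55 in hIAPP and 6.65 to 7.59 in mIAPP islets at 11.1 mM.

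**Figure D3:**
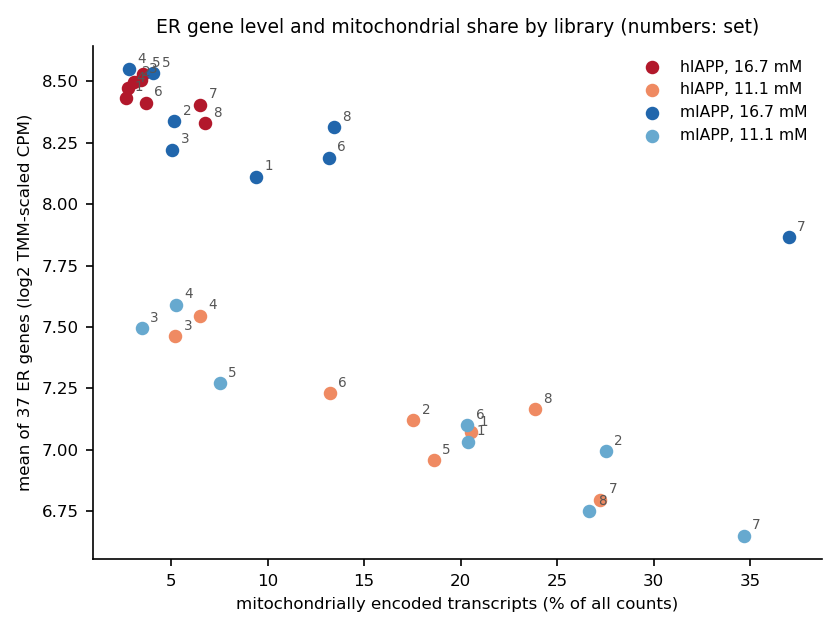
Mean log2 TMM-scaled CPM of the 37 genes in each of the 32 libraries against the share of mitochondrially encoded transcripts, coloured by group and numbered by set. In each group the library with the highest share has the lowest mean, and all libraries at 16.7 mM, down to the mIAPP library of set 7 at 7.87, lie above all libraries at 11.1 mM, which reach 7.59.

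With the log2 mitochondrial share as a covariate beside the set, 27 of the 35 calls in hIAPP islets and 35 of the 36 in mIAPP islets held, and the median log2 fold change was 0.97 in hIAPP and 0.86 in mIAPP islets. Of all tested genes, 10.0% were higher in hIAPP and 18.3% in mIAPP islets in that fit. The share itself differed with glucose in hIAPP islets, at 2.68% to 6.76% at 16.7 mM, against 5.23% to 27.2% at 11.1 mM. In mIAPP islets its median was 7.29% (2.84% to 37.01%) at 16.7 mM, against 20.4% (3.49% to 34.7%) at 11.1 mM. Share and glucose therefore cannot be fully told apart in either genotype. The 8 calls that ended in hIAPP islets were Atf6, Canx, Edem3, Ern1, Ero1lb, Sel1l, Txndc5 and Xbp1, which include 3 of the 4 sensors and factors, and the call that ended in mIAPP islets was Ern1. In that fit Hspa5 changed by 1.20 ± 0.15 in hIAPP islets (adjusted p = 1.70e-06) and Xbp1 by 0.13 ± 0.13 (adjusted p = 0.527). In the libraries with under 10% mitochondrial counts (8 and 5 of hIAPP and mIAPP islets at 16.7 mM, and 2 and 3 at 11.1 mM), 32 and 31 of the calls held. Of all tested genes, 11.9% were higher in hIAPP and 15.9% in mIAPP islets in those libraries. Markers of other cell types also differed between the glucose levels: 6 of 6 endothelial and 5 of 7 macrophage markers were lower at 16.7 mM in hIAPP islets, as were 4 of 6 and 6 of 7 in mIAPP islets, and of 5 tested B and plasma cell markers 3 and 2 were lower and none was higher. Of 8 beta cell markers, 6 were lower and 2 higher in hIAPP islets and 3 were lower and 2 higher in mIAPP islets. Of 6 stellate and fibroblast markers, 5 were lower in hIAPP and 2 in mIAPP islets, and none was higher. Of 5 alpha cell markers, 1 was higher in hIAPP islets, and 1 was higher and 1 lower in mIAPP islets. Of 3 delta and PP cell markers, 1 was higher and 1 lower in hIAPP islets and 1 was lower in mIAPP islets. The ductal list moved with the 37 genes in its summed level, which had a median of 903 CPM (568 to 1294) in hIAPP islets at 16.7 mM, against 337 CPM (296 to 569) at 11.1 mM. For mIAPP the ductal sum was 607 CPM (437 to 869) at 16.7 mM, against 362 CPM (291 to 430) at 11.1 mM, with no overlap. Of its 5 tested markers, Spp1 (log2 3.01) and Krt7 (0.79) were higher and Sox9 (-0.81) lower in hIAPP islets, and Spp1 (2.80) was higher in mIAPP islets. None of the ductal markers was at 0 in every library of a group. The part of these cell types in the result was not tested.

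**Figure D4:**
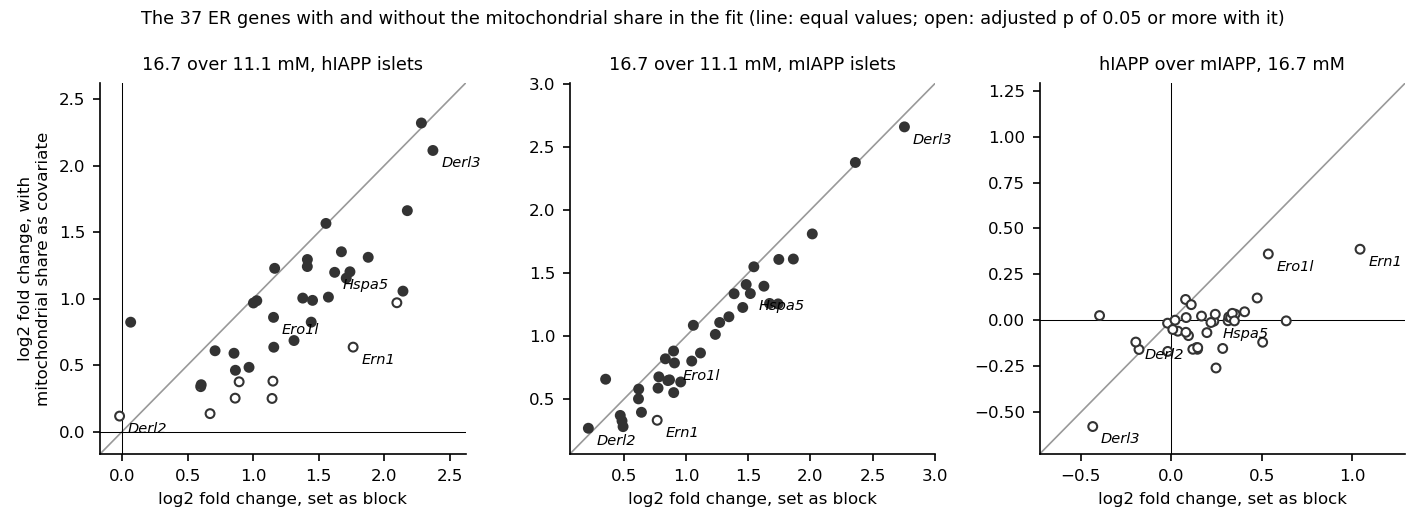
Log2 fold change of the 37 genes with the mitochondrial share in the fit (vertical) against that without it (horizontal), for glucose in hIAPP islets, glucose in mIAPP islets and genotype at 16.7 mM; the line marks equal values and open circles have an adjusted p of 0.05 or more with the share in the fit. The glucose changes shrink to a median of 0.97 in hIAPP and 0.86 in mIAPP islets and stay above 0 for all 37 genes, whereas the genotype differences gather around 0.

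The next comparison asked whether human IAPP, which forms amyloid, went with a different level of this machinery at 16.7 mM glucose. The differences were small: 8 of 37 genes (21.6%) were higher in hIAPP than in mIAPP islets and 1 (2.7%) was lower, where 9.27% of all tested genes were higher and 11.2% lower. Of the genes at 50 CPM or more, 14.04% were higher. The median log2 fold change of the 37 was 0.17, and 31 of 37 were positive. In 0 of the 37 genes were the groups fully apart, where 2.39% of all tested genes were apart and higher and 0.584% apart and lower. The 8 were Ern1, the oxidases Ero1l and Ero1lb, the isomerases P4hb and Pdia6, Uggt1, and the ERAD genes Edem1 and Os9, while Derl2 was lower; no lumenal chaperone passed the threshold.

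Ern1 differed most, at the values given above for 16.7 mM, by log2 1.04 ± 0.26 (adjusted p = 0.00636). It was higher in 8 of 8 sets, and 6 of 8 hIAPP libraries lay above the highest mIAPP library. Ero1l, which re-oxidises the isomerases and is known to be induced by CHOP and by hypoxia, measured 123, 169 and 205 CPM in hIAPP islets and 89.0, 116 and 144 CPM in mIAPP islets at 16.7 mM. Here too 6 of 8 hIAPP libraries lay above the mIAPP range, and the log2 fold change was 0.54 ± 0.11 (adjusted p = 0.00171). Between 16.7 and 11.1 mM glucose Ero1l changed by 1.15 ± 0.11 in hIAPP and 0.90 ± 0.11 in mIAPP islets, with 52.5, 68.3 and 125 CPM in hIAPP and 44.1, 58.3 and 102 CPM in mIAPP islets at 11.1 mM. Ero1lb measured 2045, 2312 and 2624 CPM in hIAPP and 872, 1735 and 2331 CPM in mIAPP islets at 16.7 mM, a log2 fold change of 0.47 ± 0.15 (adjusted p = 0.0268). Its groups overlapped, with 3 of 8 hIAPP libraries above the mIAPP range.

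P4hb encodes the archetypal protein disulfide isomerase and measured 1609, 1819 and 1997 CPM in hIAPP and 830, 1429 and 1872 CPM in mIAPP islets. Pdia6, an isomerase that binds IRE1 alpha, measured 897, 1009 and 1135 CPM in hIAPP and 466, 832 and 1125 CPM in mIAPP islets. In both genes the hIAPP libraries filled the upper part of the mIAPP range and set 7 was the lowest mIAPP library, with log2 fold changes of 0.35 ± 0.12 (adjusted p = 0.0366) for P4hb and 0.33 ± 0.11 (adjusted p = 0.0410) for Pdia6. Uggt1 had 329, 370 and 421 CPM in hIAPP and 195, 292 and 419 CPM in mIAPP islets, with a log2 fold change of 0.32 ± 0.11 (adjusted p = 0.0379), and its groups overlapped too.

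In ERAD, Edem1 measured 189, 202 and 231 CPM in hIAPP and 112, 153 and 213 CPM in mIAPP islets, a log2 fold change of 0.40 ± 0.13 (adjusted p = 0.0327). The lectin Os9, which hands glycoproteins to the HRD1 ligase, measured 367, 422 and 486 CPM in hIAPP and 241, 311 and 479 CPM in mIAPP islets, and its log2 fold change of 0.35 ± 0.13 had an adjusted p of 0.0499. Both overlapped between the genotypes. Derl2 went the other way, with 93.8, 101 and 110 CPM in hIAPP and 106, 116 and 142 CPM in mIAPP islets. It was lower in 8 of 8 sets, 5 of 8 hIAPP libraries lay below the mIAPP range, and the log2 fold change was -0.20 ± 0.07 (adjusted p = 0.0351). At 11.1 mM Derl2 measured 97.9, 101 and 116 CPM in hIAPP and 89.0, 101 and 115 CPM in mIAPP islets, so that its glucose change was -0.02 ± 0.07 (adjusted p = 0.802) for hIAPP and 0.21 ± 0.07 (adjusted p = 0.0104) for mIAPP. Its span overlaps Mis12 on the other strand.

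The same genes at 11.1 mM show their course with glucose. P4hb measured 399, 606 and 833 CPM in hIAPP and 303, 589 and 935 CPM in mIAPP islets there, with a glucose change of 1.57 ± 0.12 in hIAPP and 1.23 ± 0.12 in mIAPP islets. Pdia6 measured 221, 304 and 440 CPM in hIAPP and 163, 274 and 458 CPM in mIAPP islets, with a change of 1.71 ± 0.12 and 1.45 ± 0.12. Ero1lb measured 778, 1280 and 2099 CPM in hIAPP and 601, 1066 and 2127 CPM in mIAPP islets, with a change of 0.86 ± 0.15 and 0.64 ± 0.15. These 3 genes overlapped between the genotypes at 11.1 mM. Uggt1 measured 115, 161 and 243 CPM in hIAPP and 111, 162 and 241 CPM in mIAPP islets. Edem1 measured 62.6, 79.4 and 131 CPM in hIAPP and 43.9, 75.4 and 123 CPM in mIAPP islets, with a glucose change of 1.31 ± 0.13 and 1.11 ± 0.13. Os9 measured 120, 151 and 202 CPM in hIAPP and 94.9, 142 and 247 CPM in mIAPP islets, with a change of 1.44 ± 0.13 and 1.04 ± 0.13. Their glucose groups were apart in hIAPP islets except for Ero1lb.

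**Figure D5:**
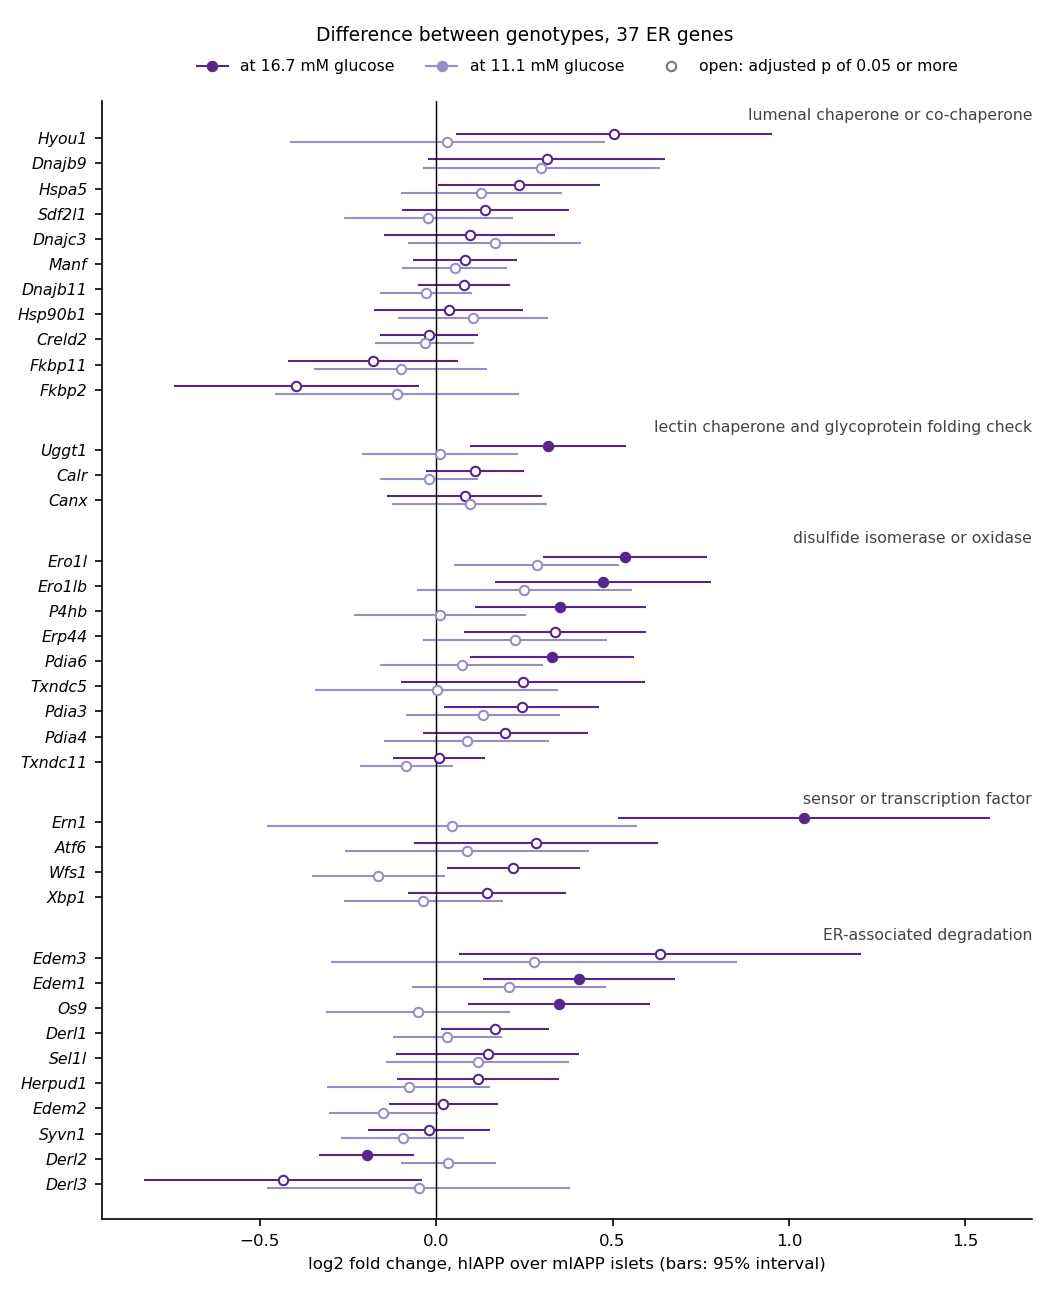
Log2 fold change of the 37 genes between hIAPP and mIAPP islets at 16.7 mM (dark) and at 11.1 mM glucose (light), by role, with 95% intervals from the edgeR fit of 8 libraries a group; open circles have an adjusted p of 0.05 or more. The 9 filled points at 16.7 mM are Ern1, Ero1l, Ero1lb, P4hb, Pdia6, Uggt1, Edem1, Os9 and Derl2, and no point at 11.1 mM is filled.

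Most of the genotype calls at 16.7 mM ended when set 1, 2, 6 or 7 was left out. Of the 9, only Ern1 and Ero1l held without set 1, without set 6, without set 7 and without the mIAPP library of set 7 alone, and without set 2 Derl2 held with them. In these fits 5.18% to 6.55% of all tested genes were higher and 4.71% to 7.26% lower, against 9.27% and 11.2% in the main fit. Without the set in the fit the count was 1 higher, Ero1l, where 3.92% of all tested genes were higher. With the mitochondrial share as a covariate 0 of the 37 genes passed in either direction, where 2.61% of all tested genes were higher and 1.97% lower. In that fit the median of the 37 was -0.00, 15 of 37 values were positive, and Ern1 stood at 0.39 ± 0.26 (adjusted p = 0.563) and Ero1l at 0.36 ± 0.13 (adjusted p = 0.145). In libraries with under 10% mitochondrial counts 2 passed, Ern1 at 0.87 ± 0.16 (adjusted p = 0.00811) and Ero1l at 0.56 ± 0.14 (adjusted p = 0.0373). There 4.38% of all tested genes were higher and 2.23% lower. The mitochondrial share was lower in islets with hIAPP at 16.7 mM than in those with mIAPP in 8 of 8 sets, by 0.07 to 30.5 percentage points, and of the marker lists 5 of 8 beta cell and 4 of 6 endothelial markers were lower, 2 of 7 macrophage and 1 of 5 tested ductal markers higher, and of 5 tested B and plasma cell markers 2 were lower and 1 higher. The beta cell list includes the replaced gene Iapp, which is among its lower markers. The part of the mitochondrial share and of these cell types in the differences between genotypes was not tested.

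At 11.1 mM glucose 0 of 37 genes differed between hIAPP and mIAPP islets in either direction, where 0.11% of all tested genes were higher and 0.0183% lower. DESeq2 and limma voom also called 0, and 1 gene, Ero1l, had an unadjusted p under 0.05 in edgeR, at log2 0.28 ± 0.11 (adjusted p = 0.722). Over all tested genes, 1121 of 16428 had such a p. The median log2 fold change of the 37 was 0.03, with single values from -0.16 to 0.30, and their 95% intervals had a median half-width of 0.23. Hspa5 differed by 0.13 (95% interval -0.10 to 0.36), Xbp1 by -0.04 (-0.26 to 0.19), Atf6 by 0.09 (-0.26 to 0.43) and Ern1 by 0.05 (-0.48 to 0.57).

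The genotype by glucose interaction tests whether the change with glucose differed between the genotypes. None of the 37 genes passed in either direction in edgeR, where 2.17% of all tested genes were higher and 0.95% lower. Limma voom called 0 and DESeq2 called 1, Wfs1, at log2 0.39 ± 0.13 (adjusted p = 0.0378), where DESeq2 called 3.59% of all tested genes higher. In edgeR 4 of the 37 genes had an unadjusted p under 0.05, against 3055 of the 16428 tested genes. The median of the 37 was 0.13, and 30 of 37 values were positive. With the mitochondrial share as a covariate the direction turned, with a median of -0.10 and 10 of 37 values positive. In the fit without it, Ern1 had the largest, 1.00 ± 0.36 (95% interval 0.26 to 1.74, adjusted p = 0.131), and was positive in 7 of 8 sets. Of the 37 intervals, 34 lay within 1 log2 unit of 0 and 21 within 0.5. Their half-widths had a median of 0.33 and reached 0.81, and differences in the response smaller than a gene's half-width were not resolved here.

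Other genes of the same pathways were taken from lists. In hIAPP islets 32.2% of all tested genes were higher and 33.3% lower at 16.7 mM, and in mIAPP islets 24.9% and 22.7%. Of 29 tested further ER folding enzymes and chaperones, 22 were higher and 2 lower at 16.7 mM in hIAPP islets, and 20 were higher and 2 lower in mIAPP islets, with a median log2 fold change of 0.53 in each. Mogs, the glucosidase that starts the trimming of N-glycans, changed by 1.75 ± 0.09 in hIAPP (adjusted p = 5.00e-14) and 1.20 ± 0.09 with mIAPP (adjusted p = 9.20e-11). Prkcsh, a subunit of the next glucosidase, changed by 1.46 ± 0.10 and 0.97 ± 0.10, and Sec63 of the translocon by 0.94 ± 0.09 and 0.96 ± 0.09. Pdia5 changed by 1.05 ± 0.09 in hIAPP islets, and the cargo receptor Lman1 by 1.41 ± 0.17 in mIAPP islets. The 2 lower genes, Fkbp10 and Sumf2, were picked out after their values were seen: Fkbp10 changed by -0.87 in hIAPP and -0.61 in mIAPP islets and Sumf2 by -0.43 and -0.33, and the calls of both ended in both genotypes in libraries with under 10% mitochondrial counts. With the mitochondrial share as a covariate the Sumf2 calls ended in both genotypes, at -0.18 in hIAPP and -0.23 in mIAPP islets, and in mIAPP islets its call also ended without set 2 or without set 8. Of 26 further ERAD genes, 22 were higher and 2 lower in hIAPP islets and 21 higher and 2 lower in mIAPP islets, with medians of 0.72 and 0.60. They were led by the selenoproteins Selenok (0.94 ± 0.07 and 1.00 ± 0.07) and Selenos (1.13 ± 0.09 and 1.19 ± 0.09) and the lectin Erlec1 (1.32 ± 0.12 and 1.39 ± 0.12). Ngly1 changed by 1.14 ± 0.10 in hIAPP and the ATPase Vcp by 0.72 ± 0.07 in mIAPP islets. The 2 lower ERAD genes, Aup1 and Tmub1, were also picked out after their values were seen. Aup1 changed by -0.62 in hIAPP and -0.37 in mIAPP islets, and Tmub1 by -0.29 and -0.43. The calls of both ended in both genotypes in libraries with under 10% mitochondrial counts. With the mitochondrial share as a covariate the higher counts in hIAPP islets were 14 for the folding list and 9 for the ERAD list, and in mIAPP islets 18 and 17, where 10.0% and 18.3% of all tested genes were higher in that fit.

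Counts of the regulators were nearer to those over all genes. Of 15 tested further regulators of the response, 7 were higher and 4 lower at 16.7 mM in hIAPP islets, and 6 higher and 3 lower in mIAPP islets. The genes at 50 CPM or more were higher in 48.1% and lower in 27.3% of cases in hIAPP islets, and in 40.8% and 21.9% in mIAPP islets. Creb3 and Creb3l2, membrane-bound relatives of ATF6, changed by 0.74 ± 0.06 and 1.13 ± 0.16 in hIAPP and by 0.34 ± 0.06 and 0.75 ± 0.15 in mIAPP islets, Nucb1 by 1.19 ± 0.12 and 0.94 ± 0.12, and Atf6b by 0.58 ± 0.13 in mIAPP islets. Crebrf was lower, by -0.997 ± 0.10 in hIAPP and -0.43 ± 0.10 in mIAPP islets, as was Bloc1s1, a transcript that IRE1 alpha is known to cleave, by -0.63 and -0.43. In hIAPP islets the calls of Creb3l2 (0.37) and Bloc1s1 ended with the mitochondrial share as a covariate, and that of Bloc1s1 also in libraries with under 10% mitochondrial counts. In those libraries the calls of Creb3, Atf6b and Bloc1s1 ended in mIAPP islets. In the PERK, ATF4 and CHOP arm, 8 of 12 genes were higher and 3 lower in hIAPP islets and 6 higher and 2 lower in mIAPP islets. Asns, the asparagine synthetase under ATF4, changed by 1.15 ± 0.08 and 0.98 ± 0.08, Eif2ak3, which encodes PERK, by 1.86 ± 0.20 and 1.03 ± 0.20, and Ppp1r15a by 0.76 ± 0.11 in hIAPP islets, where its call ended with the covariate, at 0.38. In mIAPP islets Atf4 changed by 0.40 ± 0.07 and Ppp1r15b by 0.95 ± 0.18. Ddit3, which encodes CHOP, and Trib3, its target, fell in both genotypes and are named after their values were seen. Ddit3 changed by -1.25 ± 0.24 in hIAPP (adjusted p = 9.02e-05) and -1.16 ± 0.24 with mIAPP (adjusted p = 0.000433), and Trib3 by -0.47 and -0.69. In hIAPP islets both of these calls ended with the covariate, where Ddit3 stood at -0.12, and in libraries with under 10%, and in mIAPP islets both held in the 19 alternatives. A second identifier in the table carries the symbol Ddit3, and the values are those of ENSMUSG00000025408.

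Between the genotypes at 16.7 mM, 3 of the 29 further folding genes were higher and 0 lower, 3 of 26 ERAD genes were higher and 1 lower, 4 of 15 regulators were higher and 3 lower, and 4 of 12 genes of the PERK arm were higher and 0 lower, where 9.27% of all tested genes were higher and 11.2% lower. The shares of the folding and ERAD lists that were higher are near that of all genes. Atf3, the stress-induced transcription factor downstream of ATF4, differed most, by 1.55 ± 0.17 (adjusted p = 3.98e-07), and it also passed in the interaction, at 1.45 ± 0.24 (adjusted p = 0.000726). Its change with glucose was 1.29 ± 0.17 in hIAPP (adjusted p = 4.76e-07) and -0.16 ± 0.17 with mIAPP (adjusted p = 0.454). Eif2ak3 was higher in hIAPP islets by 0.92 ± 0.20 (adjusted p = 0.00184), Ppp1r15a by 0.37 ± 0.11 and Ddit4 by 0.35 ± 0.12, while Ddit3 itself did not pass, at -0.37 ± 0.24 (adjusted p = 0.270). Bloc1s1 was lower, by -0.54 ± 0.10 (adjusted p = 0.000465), as was Crebrf, by -0.40 ± 0.10, and Creb3 was higher by 0.31 ± 0.06 and Yipf1 by 0.25 ± 0.07. Of the folding list Mogs (0.42 ± 0.09), Pdia5 (0.35 ± 0.09) and Prkcsh (0.40 ± 0.10) were higher, and of the ERAD list Erlin1 (0.64 ± 0.16), Ngly1 (0.36 ± 0.10) and Faf2 (0.24 ± 0.08) were higher and Aup1 lower (-0.44 ± 0.14). With the mitochondrial share as a covariate the calls of Atf3, Bloc1s1, Creb3 and Crebrf held, as they did in each of the other 18 alternatives, and those of the 11 other genes named in this paragraph as higher or lower at 16.7 mM ended. The calls of Faf2, Aup1, Ppp1r15a, Ddit4 and Ngly1 also ended without set 1, and the first 4 of these without set 6. At 11.1 mM 0 genes of the 4 lists passed in either direction, and in the interaction Mogs (0.56 ± 0.12), Creb3 (0.40 ± 0.09) and Atf3 were higher and Crebrf lower (-0.57 ± 0.15). The interaction call of Crebrf ended in 9 of 19 alternatives, among them those without set 2, 3, 4, 5, 6 or 8, that of Mogs in 3, that of Creb3 in 2 and that of Atf3 in 1, the libraries with under 10% mitochondrial counts.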

How the data were processed

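RNA of 32 islet libraries (4 groups in 8 sets) was sequenced after poly(A) selection with a directional kit, per the labels' protocols. The authors deposited estimated counts per gene in 1 table; bcl2fastq 1.8.4, kallisto 0.45.0 and build GRCm38 are named per the submitters' processing notes, and the strand setting is not given in the sources used here. These expected counts were rounded to whole numbers. edgeR 4.0.16 (limma 3.58.1, R 4.3.3) was fitted to all genes past filterByExpr with TMM scaling, a term for each of the 4 groups, and set as the block, leaving 21 residual degrees of freedom. Quasi-likelihood tests gave 5 contrasts, with Benjamini-Hochberg adjusted p over 16428 genes and a threshold of 0.05. Intervals are at 95%. Levels are TMM-scaled CPM, and their precision is limited by 8 libraries a group. The sets pair the samples by the labels, and libraries of a set deviated together on average, with mean correlations of 0.168 to 0.362 between groups and a lowest single value of -0.23. All 37 genes are accounted for. Given in full were Hspa5, Xbp1, Atf6, Ern1, every gene past the threshold between genotypes at 16.7 mM or in the interaction, and up to 3 per role with the largest change among those past it only with glucose. From each pathway list up to 4 genes with the smallest p among those past the threshold were named per comparison, and exceptions are marked in the text. Members and lists were chosen with earlier results of these data known. Alternatives were DESeq2 1.42.0, limma voom, RLE scaling, other filters, leaving out mitochondrial or insulin and Iapp genes, no block, leaving out the mIAPP library of set 7 at 16.7 mM, leaving out each set, the mitochondrial share as a covariate and libraries under 10% mitochondrial counts. Scripts were tested on simulated data. Promoter windows came from RefSeq. Of the 37 genes, 8 overlap another gene's span, 1 on the same strand (Manf with Rbm15b).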

Additional observations from a re-analysis of the deposited data

Results flagged for a closer look

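In 12 of 148 groups of 8 libraries 1 library stood apart from the other 7, by the gap to its nearest neighbour over the range of the group; chance gives about 1 in 20 groups. Of these, 7 were set 7 in mIAPP islets. At 16.7 mM that library was the highest for Creld2 (0.602 of the range), Fkbp11 (0.646) and Fkbp2 (0.788), and the lowest for Txndc5 (0.559), Xbp1 (0.718) and Derl1 (0.584). Its mitochondrial share was 37.01%, the highest of all 32 libraries, and the part of that share in these values was not tested. At 11.1 mM the mIAPP library of set 7 was the highest for Fkbp2 (0.545), and the hIAPP library of set 7 the highest for Creld2 (0.555). The mIAPP library of set 4 at 11.1 mM was the highest for Dnajb9 (0.599), Ero1l (0.547) and Edem3 (0.528). The hIAPP library of set 8 at 16.7 mM was the lowest for Canx (0.559).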

How the results depend on the processing

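The glucose counts stayed within 1.5 times in all 19 alternatives: 17 kept all 35 calls in hIAPP islets and 13 all 36 in mIAPP islets, and the fewest kept were 27 and 31. In the fits that kept the fewest, 10.0% of all tested genes were higher in hIAPP and 15.9% in mIAPP islets. The genotype calls at 16.7 mM were less stable, and 7 of 19 alternatives kept all 9. Of the 8 higher, the count was 1 without the replicate block (set), 4 without a filter on low counts, 0 with the mitochondrial share as a covariate, 2 in libraries with under 10% mitochondrial counts and 2 without the mIAPP library of set 7. Of all tested genes, 3.92%, 4.35%, 2.61%, 4.38% and 6.49% were higher in these fits, in that order, against 9.27% in the main fit. The count of 1 lower was 0 in each of these 5. Leaving out 1 set at a time gave 2 to 10 higher and 0 to 1 lower. Of all tested genes, 5.18% to 10.3% were then higher and 4.71% to 12.9% lower. In the interaction DESeq2 called 1 gene higher, against 0. With the covariate the positive values among the 37 numbered 15, against 31, between genotypes at 16.7 mM and 10, against 30, in the interaction. Among the genes past the threshold that were followed through the alternatives, the sign of Os9 turned between genotypes at 16.7 mM (-0.0032 with the covariate). With glucose in hIAPP islets, signs turned for Aup1 (0.0874) and Traf2 (0.147) with the covariate and Tmub1 (0.0576) in libraries with under 10%. Traf2 is a lower gene of the regulator list that is not named above. The cause was not tested. Libraries with under 10% leave 2 hIAPP and 3 mIAPP libraries at 11.1 mM, which limits that alternative.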
